A study of Mus musculus with 6 samples.

Results

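Some mouse genes lie head to head, with their transcription start sites close together and pointing away from each other, so that the DNA between them serves as the promoter of both. On the promoter arrays of this study, 1328 of the 474380 probes named 2 different genes, each with its start within 1000 bp of the probe. These probes formed 649 shared promoters, 1 for each of 649 gene pairs, covering 1298 genes. All 1328 probes lay upstream of both genes, and the array annotation itself marked all 1328 as divergent promoters. No probe named more than 2 genes. In the 343 shared promoters with 2 or more probes, the distances to both genes ran in opposite directions along the chromosome in all 343, as they do when both starts point outwards. Pairs whose starts are so close that no probe fits between them are not part of this set.

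The probes read out chromatin immunoprecipitation (ChIP) from C2C12, a line of mouse myoblasts. In low serum these cells stop dividing and fuse into myotubes. One culture type carried a retroviral vector for the transcription factor TEAD4 with a Flag-HA tag, and the other carried the empty vector; both were selected in puromycin, kept for 5 days in 2% horse serum and fixed for 10 min in 0.4% formaldehyde. Both were precipitated with the anti-Flag antibody, and the precipitated DNA (IP) was hybridised against input DNA of the same kind of cells. There were 2 TEAD4 samples, called duplicates in the labels without saying whether they were separate cultures, and 1 control sample, each on 2 array designs. The vector adds tagged TEAD4 to the cells' own, and untagged TEAD factors are not seen by the antibody. No expression was measured, so the myotube label was not checked against marker genes.

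TEAD4 belongs to a family of DNA-binding proteins that recognise the sequence GGAATG, the core of the muscle M-CAT element, and that activate genes together with the coactivators YAP and TAZ. Shared promoters are typically rich in CpG dinucleotides, poor in TATA boxes and active in most cell types. The genes they serve are often housekeeping genes, such as those of DNA repair, translation and mitochondria.

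The sequences of several shared promoters are shown first, since the comparisons below turn on them. They are the 250 bases before the start of 1 gene of the pair, 5′ to 3′ along that gene, from the RefSeq promoter table of GRCm38.p6, a build that is not that of the array coordinates. Cep44 (chr8:56550567-56550816, minus strand) and Fbxo8 (chr8:56550904-56551153, plus strand) point away from each other on either side of the shared promoter with the highest TEAD4 signal. Fto (chr8:91313275-91313524, plus strand) shares the second highest with Rpgrip1l. Atp6v1d (chr12:78861639-78861888, minus strand) and Ska2 (chr11:87109011-87109260, plus strand) are shown because their promoters hold the TEAD motif, GGAATG or its reverse complement CATTCC, which is in capitals.
Cep44: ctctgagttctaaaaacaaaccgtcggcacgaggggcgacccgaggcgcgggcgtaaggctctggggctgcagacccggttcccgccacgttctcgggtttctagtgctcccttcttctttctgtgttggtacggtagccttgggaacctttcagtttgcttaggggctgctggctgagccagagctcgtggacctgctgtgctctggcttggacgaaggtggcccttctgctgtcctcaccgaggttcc
Fbxo8: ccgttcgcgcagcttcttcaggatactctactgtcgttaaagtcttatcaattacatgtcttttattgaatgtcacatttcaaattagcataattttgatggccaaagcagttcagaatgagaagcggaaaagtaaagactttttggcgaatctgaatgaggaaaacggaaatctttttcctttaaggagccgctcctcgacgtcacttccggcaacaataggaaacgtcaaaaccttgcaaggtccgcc
Fto: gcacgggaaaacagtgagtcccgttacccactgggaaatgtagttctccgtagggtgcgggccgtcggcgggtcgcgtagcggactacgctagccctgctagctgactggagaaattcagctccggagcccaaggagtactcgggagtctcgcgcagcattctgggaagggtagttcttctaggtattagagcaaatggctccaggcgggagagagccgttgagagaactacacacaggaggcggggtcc
Atp6v1d: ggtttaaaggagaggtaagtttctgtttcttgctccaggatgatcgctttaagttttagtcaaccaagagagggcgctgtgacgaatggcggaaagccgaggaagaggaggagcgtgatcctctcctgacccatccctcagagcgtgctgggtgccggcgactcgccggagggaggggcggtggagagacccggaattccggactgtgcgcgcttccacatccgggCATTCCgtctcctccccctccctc
Ska2: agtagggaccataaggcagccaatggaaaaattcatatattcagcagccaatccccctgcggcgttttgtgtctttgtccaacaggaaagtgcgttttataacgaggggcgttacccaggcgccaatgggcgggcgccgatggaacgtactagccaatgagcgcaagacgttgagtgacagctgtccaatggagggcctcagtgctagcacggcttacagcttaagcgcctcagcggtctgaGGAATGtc
The first letter of the motif lies 24 bases before the start of Atp6v1d and 8 bases before the start of Ska2. The sequences of Cep44, Fbxo8 and Fto hold no match, which says only that these letters are not in these windows.

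Each value below is a log2 ratio of IP over input, centred on the array's median, and averaged over a window of a central probe and all others up to 500 bp away, at least 3 probes in all. A value of 1 is 2-fold over input. Of the 649 shared promoters, 636 had a window and 13 did not, and there were 1302 windows in all. The window nearest the midpoint between both starts stood for each shared promoter, and held between 3 and 8 probes with a median of 5. The starts lay between 35 and 1915 bp apart, with a median of 319 bp, and 306 shared promoters had a single probe between the starts. The comparison set was 12756 promoters of genes that share no such region, each with the window nearest the start on its upstream side, also with a median of 5 probes. The 3 samples differed in signal over background: the IP channel stood between 3.62 and 5.41 times over background on the TEAD4 arrays and between 1.84 and 2.04 times on the control arrays. Per the file headers, the scanner software used extended dynamic range for the control arrays alone. The part of these differences in the results was not tested.

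Shared promoters carried more TEAD4 signal over input than promoters of single genes, and the empty-vector control carried more still at the same places. The median shared promoter had a log2 ratio of 0.38 in TEAD4 sample 1, 0.38 in TEAD4 sample 2 and 1.73 in the control. Among one-gene promoters the medians were 0.15, 0.11 and 1.21 in the same order, and over all 428057 windows they were -0.01, -0.01 and 0.26. The spread over shared promoters was an SD of 0.34 in TEAD4 sample 1, 0.41 in TEAD4 sample 2 and 0.99 in the control, n = 636. So in all 3 samples the middle of the distribution lay above that of one-gene promoters, and the control lay furthest out and was the broadest. The order of control and TEAD4 depended on the scaling of the arrays. With each array's values as deposited and centred, TEAD4 was 2-fold above the control at 4 shared promoters and 2-fold below it at 345. With arrays scaled to a common spread these counts were 22 and 30, and after quantile normalization they were 53 and 29, so the direction turned.

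The mean of both TEAD4 samples was above input at 595 of the 636 shared promoters, and both samples were above it at 555. The TEAD4 samples differed from each other by a median SD of 0.14 per shared promoter (n = 2 samples). The control was above the TEAD4 mean at 551 of 636. Across the 636 shared promoters the TEAD4 samples correlated with each other (Pearson's r = 0.68), against 0.57 over all windows. Neither followed the control: r was 0.08 for sample 1 and -0.05 for sample 2, where over all windows it was 0.33 and 0.23. These correlations are across promoters within these libraries, and promoters are not independent replicates. The control value of a shared promoter thus said little of its TEAD4 value.

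**Figure D1:**
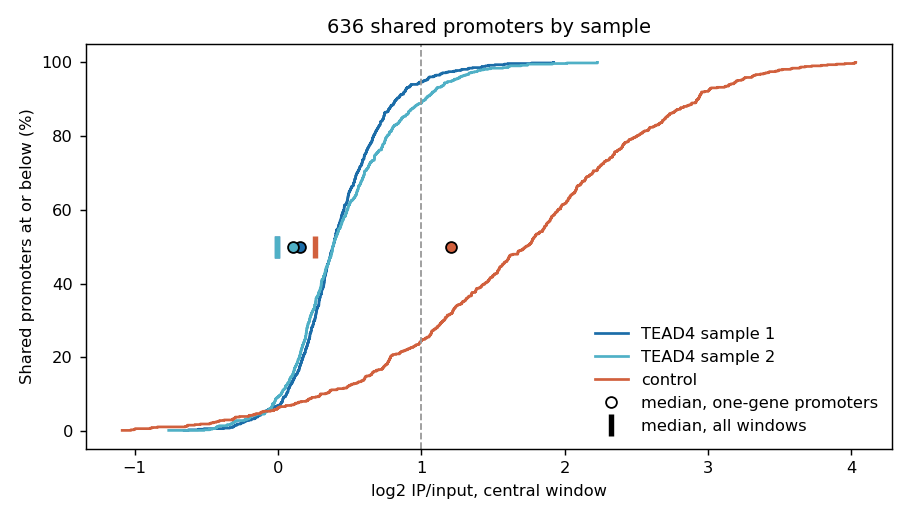
Cumulative share of the 636 shared promoters (y axis, percent) at or below each log2 IP/input value of the central window (x axis), with 1 line for each of the 3 samples. Circles mark the medians of one-gene promoters and bars those of all windows, and the dashed line is 2-fold over input; the control line reaches its median at 1.73 and both TEAD4 lines at 0.38.

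Few shared promoters reached 2-fold over input. The rule was met in both TEAD4 samples at 22 of 636 (3.46%), against 0.776% of one-gene promoters and 0.659% of all windows. Sample 1 reached it at 34 shared promoters and sample 2 at 70. None was 2-fold below input in both samples, a rule met by 0.0252% of all windows. The count of 22 (3.46%) depended on the scaling: it was 9 (1.42%) with normexp background correction, where one-gene promoters had 0.376%, and 164 (25.8%) after quantile normalization, where they had 7.48%. Of the 22, normexp kept 8 and windows of 1000 bp to each side also kept 8.

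The test was limma's moderated test of the TEAD4 mean against input across all windows, with Benjamini-Hochberg adjustment at 0.05. By it, 143 of 636 shared promoters were higher than input (22.5%), against 6.16% of one-gene promoters and 4.01% of all windows. No shared promoter was lower, against 1.37% of all windows. All 22 shared promoters that met the rule of size passed the test, which uses the same TEAD4 values and so adds no separate support. The test rests on 1 residual degree of freedom, the difference between both TEAD4 samples, which may be technical.

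The control reached 2-fold over input at 75.6% of shared promoters, 56.5% of one-gene promoters and 26.4% of all windows. Both TEAD4 samples were at least 2-fold below the control at 345 shared promoters (54.2%), against 46.9% of one-gene promoters and 21.7% of all windows. They were at least 2-fold above it at 4 shared promoters (0.629%), against 1.25% of one-gene promoters and 3.33% of all windows. In limma, TEAD4 was lower than the control at 419 shared promoters (65.9%), against 59.3% of one-gene promoters and 31.9% of all windows. TEAD4 was higher at 20 (3.145%), against 3.755% of one-gene promoters and 10.1% of all windows. This test takes the single control sample to vary as the TEAD4 samples do. For 1 value in 2 samples against 1, the exact two-sided permutation test cannot give a p below 0.667. Under normexp background correction, 19 shared promoters were 2-fold below the control and 4 above it.

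Both measures together, 2-fold over input and 2-fold over the control, held at 1 shared promoter (0.157%), that of Cep44 and Fbxo8. They held at 0.180% of one-gene promoters and 0.261% of all windows. Of the 22 shared promoters 2-fold over input, the control was also 2-fold over input at 14 and under it at 8. At 7 of the 22 the control was above the TEAD4 mean.

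**Figure D2:**
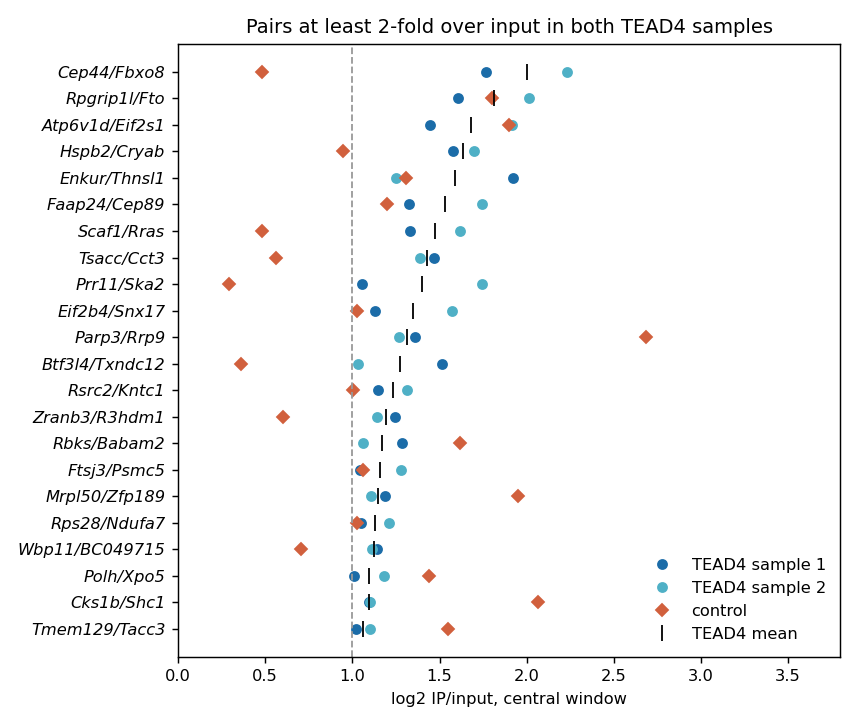
Log2 IP/input of the central window (x axis) for the 22 gene pairs (y axis) at least 2-fold over input in both TEAD4 samples, ordered by the TEAD4 mean. Circles are the TEAD4 samples, diamonds the control and bars the TEAD4 mean; the control lies left of both TEAD4 samples at Cep44/Fbxo8 (0.48) and right of them at Parp3/Rrp9 (2.68).

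The highest TEAD4 signal was between Cep44 (BC088983 on the array), which encodes a protein of the centrosome, and Fbxo8, an F-box protein. Its window of 6 probes, chr8:59442525-59443370 in the array's coordinates, stood at 1.77 in TEAD4 sample 1, 2.23 in TEAD4 sample 2 and 0.48 in the control. Both TEAD4 samples lay well above the control. The TEAD4 mean was 2.00 ± 0.33 (SD, n = 2; limma adjusted p = 0.0031 over input), and it exceeded the control by 1.52 (SE 0.30, adjusted p = 0.0041). The mean was 1.23 with normexp, 1.27 with windows of 1000 bp to each side and 2.86 with windows of 250 bp, and both rules of size were met under each. Single probes climbed to 2.68 and 4.70 in the TEAD4 samples at a probe 100 bp to the Fbxo8 side of the midpoint. The control's highest probes there lay outside the starts, with 3.87 at 545 bp to the Fbxo8 side and 4.81 at 1381 bp to the Cep44 side, both beyond the starts.

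The second was between Rpgrip1l, whose protein sits at the base of the primary cilium, and Fto, an RNA demethylase. Its window, chr8:94203214-94203950, stood at 1.60, 2.02 and 1.80 in sample 1, sample 2 and the control. All 3 samples were at least 2-fold over input and the control fell between the TEAD4 samples. The TEAD4 mean minus the control was 0.01 (SE 0.29, adjusted p = 0.98 in limma). The third, between Atp6v1d, a subunit of the proton pump of lysosomes, and Eif2s1, the alpha subunit of the initiation factor eIF2, had a window at chr12:79780263-79780828. It stood at 1.45, 1.91 and 1.90, again with the control within the range of the TEAD4 samples. The motif of Atp6v1d printed above belongs to this region.

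Hspb2 and Cryab, neighbouring genes for small heat shock proteins that are abundant in muscle, shared the fourth. The window at chr9:50504241-50504958 stood at 1.58 in sample 1, 1.70 in sample 2 and 0.95 in the control. Averaged over the window, the TEAD4 samples lay close together and both above the control. Their mean was 1.64 ± 0.08 (SD, n = 2; limma adjusted p = 0.0035 over input) and exceeded the control by 0.69 (SE 0.24, adjusted p = 0.048). The probes stayed high beyond the Cryab start, at 2.05 and 2.59 in the TEAD4 samples 850 bp from the midpoint, and fell to 0.55 and 0.32 at 1074 bp. Control probes within the window were uneven, on the Hspb2 side -1.49 at 514 bp from the midpoint and 3.96 at 222 bp. At the latter probe the TEAD4 samples stood at 1.10 and 0.90, below the control.

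**Figure D3:**
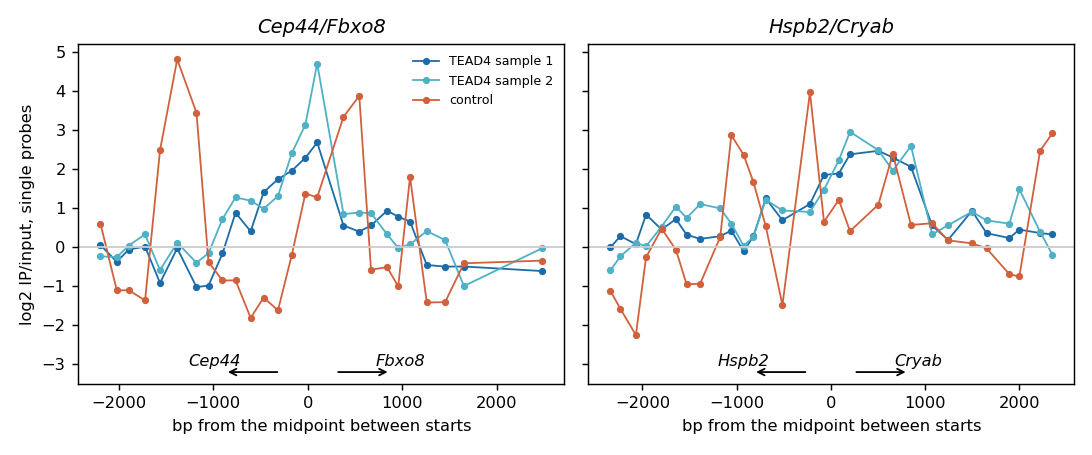
Log2 IP/input of single probes (y axis) against their distance from the midpoint between both starts (x axis, bp), for the shared promoters of Cep44 and Fbxo8 and of Hspb2 and Cryab, with 1 line per sample. Arrows begin at the starts and point along each gene; TEAD4 sample 2 peaks at 4.70 between Cep44 and Fbxo8, where the control probe is at 1.27.

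The next 6 by TEAD4 mean differed in their control value. Between Scaf1, a splicing-related protein, and the small GTPase gene Rras, sample 1 stood at 1.33, sample 2 at 1.62 and the control at 0.48, though these starts lie 1757 bp apart. Between Tsacc and Cct3, a subunit of the chaperonin that folds actin and tubulin, the values were 1.47, 1.39 and 0.56. Between Prr11 and Ska2, a kinetochore protein, they were 1.06, 1.74 and 0.30. At these pairs both TEAD4 samples lay above the control, and limma called the difference at each, with adjusted p of 0.020, 0.029 and 0.025. Like Cep44/Fbxo8 and Hspb2/Cryab, they were picked by their TEAD4 values, which the test against the control also uses. That test therefore adds no separate support for these pairs. The Ska2 promoter holds the motif printed above, and that of Cct3 holds 1 whose first letter lies 3 bases after the start.

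At the other 3 the control came close to the TEAD4 samples. Between Enkur and Thnsl1 the values were 1.92, 1.25 and 1.31 in sample 1, sample 2 and the control. Between Faap24, of the Fanconi anaemia DNA repair pathway, and Cep89, a centriole protein, they were 1.32, 1.74 and 1.20. Between Eif2b4, a subunit of the exchange factor for eIF2, and Snx17, a sorting nexin of endosomes, they were 1.13, 1.57 and 1.03. No difference from the control was called at these pairs (limma adjusted p of 0.52, 0.38 and 0.40). The remaining 12 of the 22 had TEAD4 means between 1.06 and 1.31. Of the 10 pairs described so far, the 5 of Atp6v1d/Eif2s1, Faap24/Cep89, Tsacc/Cct3, Prr11/Ska2 and Eif2b4/Snx17 no longer met the rule of 2-fold over input under normexp. Just inside the rule stood Polh/Xpo5 at 1.01 and 1.18 in the TEAD4 samples, where Polh encodes a DNA polymerase that copies past damaged bases. Just outside it stood Tmem198b/Dnajc14 at 0.99 and 1.02.

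The 4 shared promoters 2-fold above the control, named after their values were seen, were not the same as those high over input except for Cep44/Fbxo8. Between Recql5, a DNA helicase, and Sap30bp the TEAD4 samples stood at 0.69 and 0.89 and the control at -1.03. Between Gcc1 and Arf5, a small GTPase of the Golgi, they stood at -0.04 and 0.15 with the control at -1.09. Between 1700029J07Rik and Ufsp2 they stood at 0.40 and 0.49 with the control at -0.65. At these 3 pairs the control lay below input, and the TEAD4 mean over input passed limma's test at Recql5/Sap30bp (adjusted p = 0.024) and not at Gcc1/Arf5 (0.87) or 1700029J07Rik/Ufsp2 (0.12).

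The control's own highest values fell on other pairs. They were 4.03 at Mapk1ip1/Ppp2r2d, 4.02 at Rfng/Gps1, 3.96 at Eef1d/Tigd5, 3.90 at Rad17/Taf9 and 3.83 at Hook3/Rnf170. The TEAD4 samples stood between 0.08 and 0.58 at all 5, so the control was several-fold above them. No test against the control is given for these pairs, since they were picked by that same control value. Gps1 encodes a subunit of the COP9 signalosome and Taf9 a subunit of the general factor TFIID. The lowest TEAD4 values were at Lig4/Abhd13, where Lig4 is the ligase of DNA end joining, with -0.65 and -0.43 against 0.77 in the control. At Fam228b/Pfn4 the values were -0.19, -0.76 and 1.25, and at Trappc12/Eipr1 they were -0.31, -0.41 and 1.39. None of these 3 was called lower than input, and the TEAD4 mean of Lig4/Abhd13 turned to 0.07 with windows of 1000 bp to each side.

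At matched distances from a start, shared promoters also stood above one-gene promoters in both TEAD4 samples. Windows were compared in steps of 250 bp by the distance of their central probe from the nearer start, always on the upstream side. In the nearest step, 951 windows of 575 shared promoters had medians of 0.41, 0.42 and 1.74 in sample 1, sample 2 and the control, and 16373 one-gene windows had 0.15, 0.11 and 1.21. The difference of medians was 0.28 as the mean of both TEAD4 samples and 0.54 in the control. With normexp background correction it was 0.18 and 0.12. Of these windows 40 (4.21%) of the shared and 0.873% of the one-gene kind were 2-fold over input in both TEAD4 samples.

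From 250 to 500 bp the shared medians were 0.36, 0.45 and 1.46 over 240 windows, and the one-gene medians 0.10, 0.08 and 0.86. From 500 to 750 bp they were 0.22, 0.20 and 0.92 over 85 windows, against 0.04, 0.03 and 0.40. From 750 to 1000 bp they were 0.31, 0.29 and 0.18 over 26 windows of 21 shared promoters, against -0.02, -0.02 and 0.14. The shared windows were higher in both TEAD4 samples in every step, while in the control the medians of the farthest one lay close together. A window far from the nearer start of a pair still has the other start on its far side, which a one-gene window does not. No test was made of these differences; in the nearest step they were 0.25 in sample 1 and 0.31 in sample 2. The limit of 1000 bp itself fell within a gradual decline: windows whose farther start lay 750 to 1000 bp away had medians of 0.30, 0.31 and 1.07 (233 windows), and windows between 2 starts with the farther one 1000 to 1250 bp away, outside the set, had 0.17, 0.23 and 0.62 (226 windows).

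**Figure D4:**
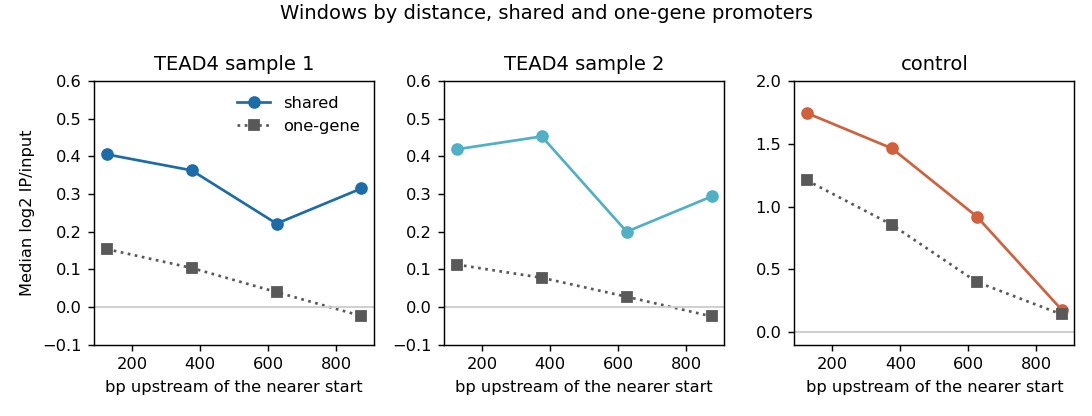
Median log2 IP/input of windows (y axis) by distance upstream of the nearer start (x axis, middle of each step of 250 bp), in 1 panel per sample, with shared promoters as solid lines and one-gene promoters as dotted lines. The control panel has a longer y axis; the solid line lies above the dotted one throughout in both TEAD4 panels, and both lines end at 0.18 and 0.14 in the control panel.

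Across the shared promoters, TEAD4 and control signal had different shapes. Single probes were taken in steps of 250 bp from the midpoint between both starts. The control medians were 1.89 and 1.91 on the sides next to the midpoint, 0.60 and 0.71 at 500 to 750 bp, and -0.01 and 0.02 at 750 to 1000 bp. In TEAD4 sample 1 the medians next to the midpoint were 0.37 and 0.37, those at 500 to 750 bp were 0.34 and 0.33, and those at 750 to 1000 bp were 0.21 and 0.23. In sample 2 they were 0.38 and 0.41, then 0.30 and 0.30, then 0.21 and 0.19. The TEAD4 signal was thus lower and broader, still above 0 where the control had reached it, and near 0 from 1250 bp outwards, at 0.04 and -0.03 in sample 1 and 0.02 and 0.03 in sample 2.

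The profiles were also taken by the distance between the starts. With starts 1000 bp or more apart, the control dropped to 0.01 and 0.38 next to the midpoint and had 2 maxima, 1.78 at 500 to 750 bp on the left and 1.91 at 750 to 1000 bp on the right, about where the starts lie. The TEAD4 medians varied over a smaller range. Sample 1 fell from 0.40 at 750 to 1000 bp on the left to 0.19 at 250 to 500 bp on the left and reached 0.37 at 1000 to 1250 bp on the right, and sample 2 stayed between 0.21 and 0.36 within 1000 bp. Their medians next to the midpoint were 0.27 and 0.30 in sample 1 and 0.25 and 0.36 in sample 2, beside 0.27 and 0.33 in sample 1 and 0.36 and 0.21 in sample 2 at the control's maxima. With starts under 250 bp apart, the control had a single maximum of 2.15 and 2.22 next to the midpoint. Sample 1 there had 0.35 and 0.38, and sample 2 had 0.33 and 0.34.

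**Figure D5:**
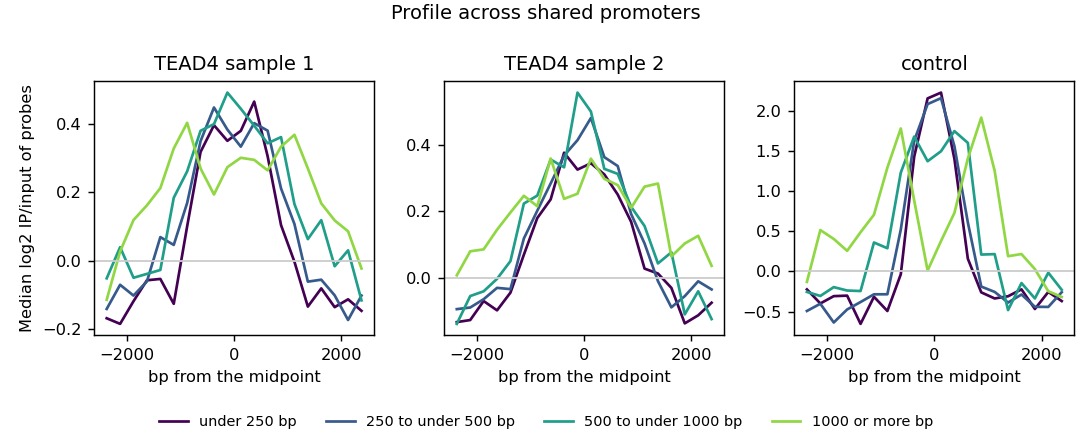
Median log2 IP/input of single probes (y axis) by distance from the midpoint between both starts (x axis, bp, steps of 250), in 1 panel per sample with its own y axis, and 1 line per class of distance between the starts. For starts 1000 bp or more apart the control line has 2 maxima (1.78 and 1.91) with a dip to 0.01 between them, and the TEAD4 lines stay between 0.19 and 0.40 across the same span.

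The central windows gave the same picture by class. The 243 shared promoters with starts under 250 bp apart had medians of 0.40, 0.36 and 1.86 in sample 1, sample 2 and the control. The 196 with 250 to under 500 bp had 0.39, 0.41 and 1.90. The 108 with 500 to under 1000 bp had 0.44, 0.48 and 1.66, the highest TEAD4 medians of the classes. The 89 with 1000 bp or more had 0.21, 0.30 and 0.51. The rule of 2-fold over input in both TEAD4 samples was met by 4, 11, 5 and 2 of them in this order.

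The control signal of shared promoters rose with their CpG count, while the TEAD4 signal showed no steady rise or fall with it. RefSeq promoters of 300 bases, from 250 before to 50 after the start, matched 1087 of the 1298 genes. Their medians were 61.0% GC and 22 CpG, against 52.7% and 7 over all 27025 promoters of the table. CpG-rich promoters, with at least 50% GC and an observed over expected CpG ratio of at least 0.6, were 77.5% of the genes in pairs and 34.1% of all. Fewer than 80% of the one-gene promoters (78.7%) had an entry, so the same comparison with them is void. Over the 570 shared promoters with an entry, the CpG count correlated with the control (Pearson's r = 0.46) and not with the TEAD4 mean (-0.02; 0.08 in sample 1 and -0.11 in sample 2). This is a description across promoters that share arrays and probe composition.

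By CpG count, the control median rose in steps from 0.77 at 0 to 9 CpG (35 shared promoters) to 1.19 at 10 to 19 (186), 1.77 at 20 to 29 (226) and 2.27 at 30 or more. The TEAD4 samples peaked in between, with 0.20 and 0.15, then 0.40 and 0.55, then 0.44 and 0.43, then 0.34 and 0.31. Of the shared promoters 2-fold over input in both, 13 lay in the class of 10 to 19 CpG (6.99% of it) and 1 in the lowest class (2.86%). Another 5 lay in that of 20 to 29 (2.21%) and 2 in the highest (1.63%). So the pairs with the most TEAD4 were mostly not those with the most CpG.

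Known motifs were counted on both strands of the same 300 bases. The TEAD motif GGAATG was in 9.57% of the promoters of genes in pairs and in 14.6% of all promoters, and the longer M-CAT form CATTCCT, which contains it, in 2.76% and 5.28%. The AP-1 motif TGANTCA was in 4.23% and 7.93%, the E-box CANNTG, bound by MyoD, in 56.8% and 72.2%, and the TATA box TATAAA in 6.16% and 14.2%. The motifs of general activators of CpG-rich promoters went the other way. The NRF1 motif was in 15.3% and 4.78%, ETS (CCGGAAG) in 27.5% and 9.12%, and the CCAAT box in 46.6% and 37.9%. A match is a description of letters and not a binding site. The promoters of genes in pairs had more GC and CpG than all promoters, and the motif shares were not adjusted for this. The 300 bases of both genes of a pair can overlap, as at Rpgrip1l/Fto, so the same match can count for both.

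The 80 shared promoters with a TEAD motif in either gene's promoter had medians of 0.38, 0.52 and 1.32 in sample 1, sample 2 and the control, and the 490 without had 0.39, 0.38 and 1.76. The medians thus differed in sample 2 and the control but hardly in sample 1. The rule of 2-fold over input was met by 7 of the 80 (8.75%) and 14 of the 490 (2.86%). The 7 were Atp6v1d/Eif2s1, Tsacc/Cct3, Prr11/Ska2, Parp3/Rrp9, Btf3l4/Txndc12, Mrpl50/Zfp189 and Wbp11/BC049715. With the M-CAT form, 3 of 25 (12.0%) met the rule and 18 of 545 without it (3.30%). With the AP-1 motif, 0 of 33 met it and 21 of 537 without (3.91%). The share was also higher with than without the TATA box (7.14% and 3.41%) and the NRF1 motif (5.56% and 3.25%). It was lower with than without the ETS motif (2.96% and 4.09%), the CCAAT box (3.44% and 4%) and the E-box (3.27% and 4.65%). These are counts of few shared promoters, with no test, and under normexp 1 of the 7, Btf3l4/Txndc12, still met the rule. Of the 14 without the TEAD motif, those still meeting it under normexp were Enkur/Thnsl1, Tmem129/Tacc3, Rsrc2/Kntc1, Scaf1/Rras, Cep44/Fbxo8 and Rpgrip1l/Fto. Among the pairs that met the rule before, the gap between the shares with and without the TEAD motif was thus all but gone.

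The pairs were also grouped by what their genes do, with the share of all shared promoters (3.46% by the rule of size, 22.5% by limma) and of all windows (0.659% and 4.01%) to read each count against. Of the pairs named below as meeting the rule, only Cep44/Fbxo8 and Hspb2/Cryab still met it under normexp. Of 33 pairs with a gene of translation or the ribosome, 4 met the rule and 10 passed limma's test, and the median TEAD4 mean was 0.45. They were Atp6v1d/Eif2s1, Eif2b4/Snx17, Parp3/Rrp9 and Rps28/Ndufa7. Rps28 is a protein of the small ribosomal subunit and its pair stood at 1.05, 1.21 and 1.03 in sample 1, sample 2 and the control. Rrp9 is a nucleolar protein of ribosomal RNA processing, and its pair with Parp3 stood at 1.36, 1.27 and 2.68, so the control was far above both TEAD4 samples.

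Of 33 pairs with a gene of DNA repair or replication, 2 met the rule, Parp3/Rrp9 and Polh/Xpo5, and 10 passed limma's test. Meig1/Dclre1c, whose second gene encodes the end-processing nuclease Artemis, stood at 0.34 in sample 1 and 1.61 in sample 2 and did not pass (adjusted p = 0.068). Of 42 pairs with a mitochondrial protein, 2 met the rule, Mrpl50/Zfp189 and Rps28/Ndufa7, and 9 passed. A pair can count in more than 1 list, as Rps28/Ndufa7 and Parp3/Rrp9 do. Mrpl50/Zfp189 stood at 1.19, 1.11 and 1.95. Abhd8/Mrpl34 stood at 1.42, 0.91 and 0.24 and did not meet the rule of size. Mrpl50 and Mrpl34 are proteins of the mitochondrial ribosome.

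Of 51 pairs with a gene of RNA processing or the transcription machinery, none met the rule of size although 17 passed limma's test, and the median TEAD4 mean, 0.49, was above that of all shared promoters, 0.37. The highest were Ddx49/Cope at 0.81, 1.43 and 1.67, Cdc26/Prpf4 at 0.90, 1.23 and 1.42, and Ccdc47/Ddx42 at 1.27, 0.84 and 1.77. Ddx49 and Ddx42 are RNA helicases and Prpf4 is a splicing factor. In each the control lay above both TEAD4 samples. Sample 1 was above input at all 51 and sample 2 at 98.0% of them, against 93.1% and 90.9% of all shared promoters.

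Of 28 pairs with a gene of the proteasome or of ubiquitin transfer, 2 met the rule, Cep44/Fbxo8 and Ftsj3/Psmc5, and 5 passed limma's test. Ftsj3/Psmc5, with an ATPase subunit of the proteasome, stood at 1.04, 1.28 and 1.06, and Mrpl32/Psma2 at 0.72, 1.16 and 1.32. Of 13 pairs with a gene whose symbol begins with Zfp, Zbtb or Znf, 1 met the rule and 4 passed. This list went by symbol alone, so a member such as Zbtb8os need not encode a zinc finger protein. The highest after Mrpl50/Zfp189 were Rbbp4/Zbtb8os at 1.17, 0.97 and 2.09 and Zfp146/Gm5113 at 0.70, 1.29 and 0.82. The 4 pairs with a clustered histone gene had low values in all 3 samples apart from 1 control value of 2.87. H3c1/H1f1 stood at 0.04, 0.30 and -0.88, H3c3/H2bc3 at -0.28, 0.30 and -0.63, and H2bc9/H3c7 at -0.51, 0.06 and -0.20. None of the 4 met the rule or passed the test over input.

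For muscle genes, 3 shared promoters with a window held a gene from a list of 97. Hspb2/Cryab is described above. Actn3/Zdhhc24, with the actinin of fast fibres, stood at 0.78, 0.84 and 1.82 and passed limma's test over input (adjusted p = 0.021). Nisch/Tnnc1, with the troponin C of slow and cardiac muscle, stood at -0.24, -0.46 and -1.004 and did not pass (0.18). None of the 42 genes on a list of YAP-responsive genes lay in a shared promoter with a window. Cd3g and Cd3d, subunits of the T cell receptor complex that muscle does not use, stood at 0.35, 0.11 and 0.92 and did not pass (0.36).

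Of 20 textbook examples of shared promoters, 8 were in the set, and none met the rule of size while 2 passed limma's test over input. Mrps12/Sars2, of mitochondrial translation, stood at 0.90 in sample 1, 1.33 in sample 2 and 0.75 in the control (adjusted p = 0.013), just outside the rule in sample 1. Mcm4/Prkdc, of DNA replication and end joining, stood at 0.61, 0.81 and 2.09 (adjusted p = 0.033). The mitochondrial chaperones Hspd1/Hspe1 stood at 0.56, 0.48 and 3.68, and Gart/Son, of purine synthesis and splicing, at 0.44, 0.33 and 2.41. The basement membrane collagens Col4a1/Col4a2 stood at 0.33, 0.14 and 2.37 and Col4a6/Col4a5 at -0.23, -0.05 and 0.02. Bop1/Hsf1 stood at 0.19, 0.21 and 1.86 and Sirt3/Psmd13 at 0.15, 0.08 and 1.93. The control was above both TEAD4 samples at 7 of these 8 pairs, all but Mrps12/Sars2, and 2-fold over input at 6. Over all shared promoters these shares were 83.0% and 75.6%, so both counts were near the background.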

How the data were processed

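The deposited intensity values, from Feature Extraction (Agilent, version 9.5.3.1 in the headers), are background-subtracted and dye-normalised. The authors also deposited log10 ratios of IP (Cy5) over input (Cy3), which served as a check. For the probes' coordinates the genome build is not given in the sources. Log2 of IP over input was centred on each array's median, without control spots and non-uniform probes (236180 and 235690 probes kept). Means of windows went into limma 3.58.1 in R 4.3.3, all samples of a design together, with Benjamini-Hochberg adjustment over the windows of both designs at 0.05. On simulated data limma's own estimate of the prior degrees of freedom came out too high with 1 residual degree of freedom, so they were fitted by maximum likelihood (7.67 and 6.88 on the designs). One-gene probes were taken on the upstream side only, as all shared probes lie there. Names were updated through RefSeq tables of GRCm38.p6, 1275 of 1298 by accession, which changed 323 symbols. Other background corrections, scalings, window widths, fold limits and single replicates were tried as alternatives. Members, lists and tests were chosen with earlier results of these data known. Named pairs were the 10 highest in TEAD4 among those 2-fold over input in both samples, the 5 highest in the control, the 3 lowest in TEAD4, the textbook pairs and up to 3 of each gene list; 5 above both input and control were allowed for and 1 was found.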

Additional observations from a re-analysis of the deposited data

How the results depend on the processing

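The count of shared promoters 2-fold over input in both TEAD4 samples, 22, was 9 with normexp background correction, 95 with each array's median absolute deviation made equal, 164 with quantile normalization and 9 with windows of 1000 bp to each side. It was 130 at 1.5-fold, 2 at 3-fold, 143 by limma, 209 by limma with its own prior, 13 of 387 with both starts within 250 bp, and 34 to 70 when 1 TEAD4 replicate was left out. Wherever the one-gene share was computed, it was below that of shared promoters.

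The count 2-fold above the control, 4, was 7 after loess within arrays, 22 with the common deviation, 53 after quantile normalization, 9 with windows of 250 bp, 2 with 5 or more probes per window, 21 at 1.5-fold, 1 at 3-fold, 20 by limma, 23 by limma with its own prior, and 8 to 14 without 1 replicate. The count 2-fold below it, 345, was 19 with normexp, 30 with the common deviation, 29 after quantile normalization, 208 with windows of 1000 bp and 225 at 3-fold, so the larger side turned from below to above after quantile normalization.

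The median TEAD4 mean, 0.37, was 0.32 with normexp, 0.39 after loess, 0.55 with the common deviation, 0.78 after quantile normalization, 0.38 with windows of 250 bp, 0.34 with windows of 1000 bp, 0.38 with 5 or more probes, 0.37 without dim probes and 0.3826 to 0.3829 without 1 replicate. The difference from one-gene promoters in the nearest 250 bp, 0.28, was 0.18 with normexp, 0.41 with the common deviation, 0.53 after quantile normalization and 0.33 over all windows within 1000 bp. The same difference in the control, 0.54, was 0.12 with normexp, 0.23 with the common deviation and 0.28 after quantile normalization. It kept its direction in the alternatives computed, and the causes were not tested. Of 336 values of 45 single pairs under alternatives that kept both replicates, 196 moved by no more than 1 SD between the TEAD4 samples and 140 by more. None called over input changed sign. Of the others, the TEAD4 mean turned at Mapk1ip1/Ppp2r2d (-0.0062) and H3c3/H2bc3 (-0.085) with normexp, at Sirt3/Psmd13 (-0.0028) and H3c3/H2bc3 (-0.054) with windows of 250 bp, at Lig4/Abhd13 (0.07), Nisch/Tnnc1 (0.06) and Col4a6/Col4a5 (0.06) with windows of 1000 bp, and at H2bc9/H3c7 (0.06) and H3c3/H2bc3 (-0.28) without 1 replicate.

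Limma with its own prior, pairs on opposite strands in RefSeq (21 of 492), one-gene probes on both sides of the start (0.25) and one-gene probes without a second gene nearby (0.28) were added after seeing the data. No paired analysis was possible because the control has 1 sample, so the groups share fewer than 2 replicate numbers. The IP signal was 1.84 to 2.04 times background in the control and 3.62 to 5.41 times in TEAD4.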
